A study of Mus musculus with 12 samples.

Results

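Heme synthesis enzymes and heme oxygenase are described here in G1E-ER4 cells as 9 genes, chosen by symbol: Alas1, Alas2, Alad, Uros, Urod, Cpox, Ppox and Fech for synthesis, and Hmox1 for breakdown. They are 9 of the 17210 genes in the deposited count table, and all 9 were among the 11177 genes that passed the filter on low counts. G1E-ER4 is a mouse erythroid line that lacks its own GATA1 and carries GATA1 fused to the estrogen receptor's ligand-binding domain, and β-estradiol (EST) turns the fusion on. Every group shares this background, and the labels give the strain as C57BL/6J. The line is 1 clone, so the groups differ by transduction and treatment and not by donor. Cells received a retrovirus for 24 h, with either an empty vector or active SREBP2 (1-468aa), and EST was then added for 6 h or left out. The 4 groups, each of 3 libraries, were Vector (empty vector, untreated), SREBP2 (active SREBP2, untreated), Vector+EST (empty vector with EST) and SREBP2+EST (active SREBP2 with EST). The sample protocol gives 500 nM EST and the series text gives 200 nM. Library numbers are those of the table's column headers and do not match the replicate numbers in the titles.

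Heme is an iron-bearing ring that erythroid cells make in bulk for hemoglobin. Its synthesis begins in mitochondria, where ALAS joins glycine to succinyl-CoA, passes through the cytosol, and ends in mitochondria, where ferrochelatase inserts iron. ALAS2 is the erythroid form of the first enzyme and a known GATA1 target, ALAS1 is the form used by most other tissues, and heme oxygenase 1 opens the ring and releases iron.

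Total estimated counts ran from 18700893 to 19152254 per library, and the detection floor of 3 counts stood at 0.157 to 0.160 CPM (counts scaled to a common library size after TMM scaling). The labels name the cell type as embryonic stem cells. All 10 erythroid markers were expressed, whereas 5 of the 6 embryonic stem cell markers in the table stayed under 1 CPM in every library and Dppa4 alone was expressed. On the first principal component (65.3% of variance), SREBP2 library 1 lay nearer to SREBP2+EST libraries 2 and 5, and SREBP2+EST library 1 nearer to SREBP2 libraries 3 and 5. Results that rest on these 2 libraries are given with and without them. They were picked for lying near the opposite group, so leaving them out widens the gap between the SREBP2 and SREBP2+EST groups by construction, and calls gained without them are given as a description. Transcripts of Col1a1, Igfbp7, Fn1 and Mmp2, genes of fibroblasts and their matrix, summed to 12.3 to 27.2 CPM in Vector+EST library 5 and each SREBP2+EST library, and to 0.0510 to 0.309 CPM in the remaining 8. These 4 of 8 listed fibroblast markers were picked after earlier values were seen. Of the others, Col1a2 was highest in Vector, at 19.5 ± 0.515 CPM against 5.47 ± 1.65 in Vector+EST and 6.91 ± 1.11 in SREBP2+EST, and Pdgfrb was at 7.12 ± 2.18 CPM in SREBP2 and 6.50 ± 2.31 CPM in SREBP2+EST and under 0.16 CPM in every library of the other groups. Col3a1 stayed at 1.75 CPM or less and Dcn at 0.162 CPM or less. All 8 together summed to 19.2 to 20.1 CPM in Vector, 8.63 to 13.8 in SREBP2, 4.74 to 36.6 in Vector+EST and 23.7 to 40.5 CPM in SREBP2+EST. Of 10 macrophage markers, 9 were under 1 CPM in every library. Nothing in the labels says that the libraries of a group came from separate cultures, so p-values measure the spread between these samples, which may be technical.

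Promoters of the genes that moved most are shown because the study is about a GATA factor and a sterol factor. That of Cpox, which holds GATA matches, is also shown, though Cpox did not pass with EST or with SREBP2 alone. Windows of Alas1, Uros and Urod were searched and are not printed. Windows of 250 bases before the start were read from RefSeq (GRCm38.p6) for 7 of the 9 genes, not Fech and Hmox1, giving 10 windows. Capitals mark motif matches, each sequence is written 5′ to 3′ on the gene's strand, and bases inside an annotated exon are left out.
Alas2 promoter, chrX:150547167-150547374, plus strand: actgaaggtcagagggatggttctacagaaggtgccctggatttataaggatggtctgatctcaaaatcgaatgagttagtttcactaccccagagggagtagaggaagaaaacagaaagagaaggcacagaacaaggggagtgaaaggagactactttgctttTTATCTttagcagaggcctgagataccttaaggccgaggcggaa
Ppox promoter, chr1:171281194-171281436, minus strand: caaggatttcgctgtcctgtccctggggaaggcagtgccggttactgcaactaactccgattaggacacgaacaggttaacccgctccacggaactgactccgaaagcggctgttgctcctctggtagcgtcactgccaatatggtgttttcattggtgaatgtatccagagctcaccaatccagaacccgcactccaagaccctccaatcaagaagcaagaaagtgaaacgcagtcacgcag
Alad promoter, chr4:62520064-62520313, minus strand: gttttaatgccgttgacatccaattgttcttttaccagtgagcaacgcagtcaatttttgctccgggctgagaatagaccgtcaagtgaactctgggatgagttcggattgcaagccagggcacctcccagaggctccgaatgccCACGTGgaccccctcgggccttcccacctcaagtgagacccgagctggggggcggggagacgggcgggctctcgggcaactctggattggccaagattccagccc
Cpox promoter, chr16:58669958-58670207, plus strand: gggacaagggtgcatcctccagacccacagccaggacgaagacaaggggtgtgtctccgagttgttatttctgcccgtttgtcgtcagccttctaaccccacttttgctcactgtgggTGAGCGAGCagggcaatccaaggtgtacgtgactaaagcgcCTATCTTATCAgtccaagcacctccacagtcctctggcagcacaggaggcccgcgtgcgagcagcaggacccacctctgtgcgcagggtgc

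The GATA motifs searched, on both strands, were AGATAA (in 9.99% of promoters), AGATAG (7.71%), TGATAA (7.94%) and TGATAG (6.35%). Alas2 held 1 match to AGATAA on the minus strand, at bases -86 to -81 from the start. Cpox held AGATAG at -91 to -86 and TGATAA at -86 to -81, both on the minus strand and sharing 1 base, and a match to the MAF and NRF2 motif TGANNNNGC at -132 to -124, a motif in 35.2% of promoters and also in windows of Uros. With a second window of Uros, 3 of the 10 windows held a GATA match, against 26.5% of the 32851 RefSeq promoters of that length. The Alad window held the E box CACGTG at -105 to -100, a motif found in 6.02% of promoters and also present in windows of Urod and Uros. No motif was matched in the Ppox window, and none of the 10 windows searched, from 7 of the 9 genes, held the sterol motif TCACNCCAC, which 1.05% of promoters did. The other motifs searched were TGAGTCA (4.46% of promoters), CCACACCC (3.20%), CCCCACCC (9.05%) and GCATGCGC (2.26%). CCCCACCC was found in windows of Alas1 and Alas2 (there within the exon left out) and GCATGCGC in a window of Alas1. These matches describe letters in a window and say nothing about binding.

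The 9 genes lay far apart in level. Per kb of mean transcript length, Alad was highest in Vector cells at 495 ± 8.86 CPM per kb (SD, n = 3), followed by Cpox at 241 ± 5.31, Urod at 155 ± 1.37, Fech at 149 ± 1.24, Uros at 37.8 ± 0.880, Ppox at 28.8 ± 2.05, Alas2 at 26.5 ± 0.0853, Alas1 at 6.90 ± 0.211 and Hmox1 at 4.89 ± 0.244 CPM per kb. No neighbours in this order overlapped in Vector libraries, but part of it rests on the length used. Per kb of the longest transcript, Alas2 in Vector was at 25.6 CPM per kb, Ppox at 23.6 and Uros at 20.1, with libraries of Alas2 and Ppox overlapping, and Hmox1 at 4.89 lay above Alas1 at 3.76. The order among Uros, Ppox and Alas2 in Vector, and between Alas1 and Hmox1, is therefore not set. In each of the other groups Ppox (98.4 to 101 CPM per kb) and Alas2 (70.1 to 89.8) lay above Uros (45.4 to 49.3) per kb of mean length, and above it with the longest transcripts too. In those groups the libraries of Alad and Cpox overlapped each other, as did those of Urod and Fech, per kb of mean length. Alas1 and Hmox1 were the lowest pair in all 4 groups with either length.

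**Figure D1:**
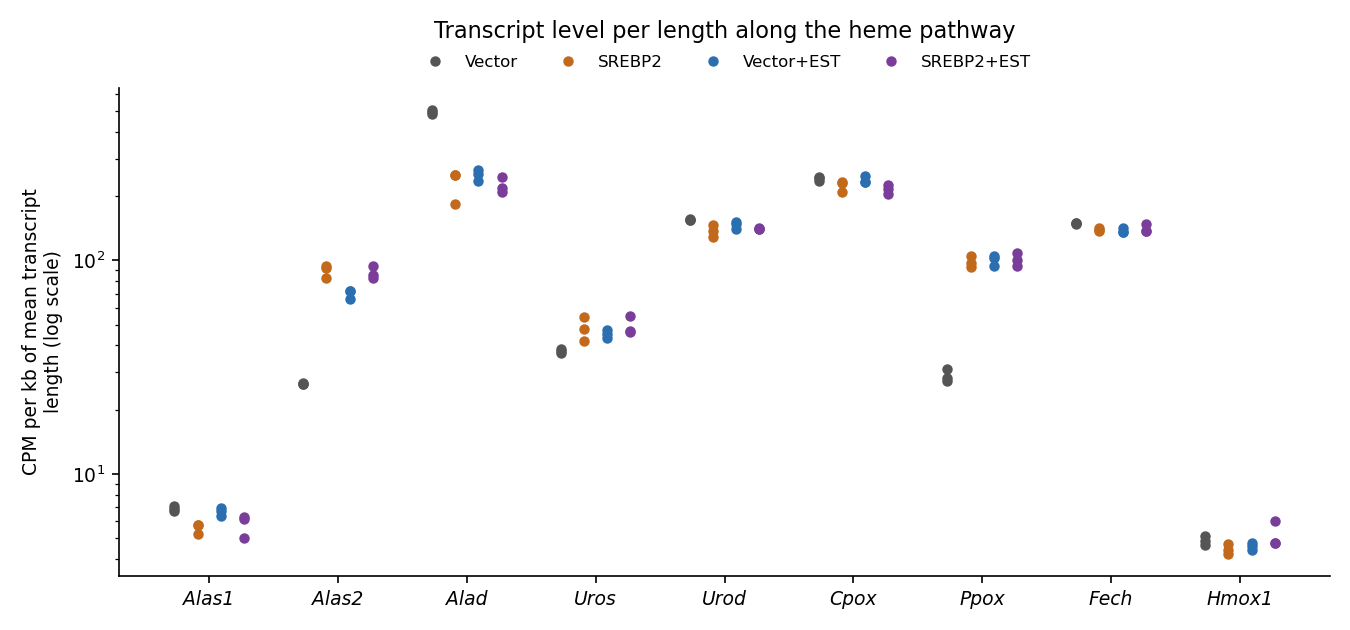
Level of each gene per kb of mean protein-coding transcript length (y axis, CPM per kb, log scale), 1 point per library, colored by group, genes in pathway order with Hmox1 last. Alas2 and Ppox sit above Uros in the 9 libraries outside Vector, and under it in Vector libraries only with this mean length, since the longest transcripts put them above it there as well. Alas1 and Hmox1 lie lowest throughout.

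The first comparison asked what GATA1 activation by EST did without SREBP2. Alas2 and Ppox, the first and the next-to-last enzyme of the pathway, rose, Alad fell to about 1/2 of its level, Uros rose and Fech fell slightly. Of the 9 genes, 5 passed the threshold (adjusted p under 0.05, edgeR quasi-likelihood test with Benjamini-Hochberg adjustment over all 11177 genes), 3 higher and 2 lower, where 70.6% of all genes tested passed (35.2% higher, 35.5% lower). The median absolute log2 fold change was 0.11 for the 9 genes and 0.37 for all genes tested.

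Alas2 (Entrez 11656, GRCm38.p6 X:150547417-150570622), the rate-limiting erythroid enzyme, measured 52.3, 52.0 and 52.0 CPM in the 3 Vector libraries and 142, 129.8 and 141 CPM in Vector+EST. The groups were far apart, with no overlap. In RNA from whole cultures, a higher level per cell and more cells that express a gene cannot be told apart. The log2 fold change was 1.40 ± 0.06 (SE, 2.64-fold, edgeR adjusted p = 6.89e-12), and it ran from 1.36 to 1.44 over 21 alternative settings. Ppox (Entrez 19044, 1:171276991-171281193), which oxidizes protoporphyrinogen to protoporphyrin, measured 46.5, 41.9 and 40.7 CPM in Vector and 153, 140.0 and 157 CPM in Vector+EST. Every treated library was above every untreated one, and the log2 fold change was 1.80 ± 0.07 (3.48-fold, edgeR adjusted p = 1.17e-12). Exons of both genes overlap a gene on the other strand, Apex2 for 12.9% of the exonic bases of Alas2 and B4galt3 for 17.5% of those of Ppox, and the sources used here do not state whether counting used strand. Apex2 rose with EST from 24.0 ± 1.26 to 35.9 ± 1.23 CPM and B4galt3 from 18.6 ± 0.347 to 23.2 ± 1.78 CPM (edgeR adjusted p = 7.89e-07 and 0.000600). The part of these neighbours in the change of Alas2 and Ppox was not tested. Exons of Alas1 and Cpox also overlap a gene on the other strand, 4930500F10Rik for 7.53% and Gpr15 for 3.06% of their exonic bases. The part of those genes was not tested either.

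Alad (Entrez 17025, 4:62505984-62520063), which joins 2 molecules of aminolevulinic acid into porphobilinogen, was 618, 597 and 605 CPM in Vector and 311, 289.5 and 325 CPM in Vector+EST. The groups did not overlap, and the log2 fold change was -0.98 ± 0.09 (1.97-fold lower, edgeR adjusted p = 6.25e-08). With Alas2 rising and Alad falling, the ratio of Alad to Alas2 per kb went from 18.7 ± 0.287 (SD, n = 3) in Vector to 3.59 ± 0.0851 in Vector+EST. Uros (Entrez 22276, 7:133686142-133710467), uroporphyrinogen III synthase, went from 35.4 ± 0.824 to 42.5 ± 1.75 CPM (log2 0.26 ± 0.08, edgeR adjusted p = 0.0106), a call lost without Vector library 4 (adjusted p = 0.0745). Fech (Entrez 14151), the ferrochelatase, went from 504, 496 and 501 CPM to 458, 459 and 478 CPM, also without overlap, but the change was small (log2 -0.11 ± 0.04, edgeR adjusted p = 0.0148). Its call was lost without Vector+EST library 1 (adjusted p = 0.0569) or 3 (0.0553).

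The remaining 4 genes did not pass. Urod (Entrez 22275, 4:116989965-116994436), uroporphyrinogen decarboxylase, was 151 ± 1.34 CPM in Vector and 142 ± 5.35 CPM in Vector+EST, and Cpox (Entrez 12892, 16:58670208-58680391), coproporphyrinogen oxidase, was 746 ± 16.4 and 738 ± 24.7 CPM. Urod reached the threshold in 7 of 21 alternative settings, without Vector library 4 or Vector+EST library 5 among them (adjusted p = 0.0466 and 0.0379). Alas1 (Entrez 11655, 9:106233455-106247954) was 12.8 ± 0.391 and 12.4 ± 0.520 CPM, with a 95% interval of the log2 fold change from -0.23 to 0.14. Hmox1 (Entrez 15368, 8:75093618-75100593) was 7.34, 7.59 and 8.09 CPM in Vector and 6.91, 7.22 and 7.48 CPM in Vector+EST, and its interval ran from -0.32 to 0.13. Hmox1 rested on 123 to 176 estimated counts per library, so a change of a few percent was not detectable at this depth.

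**Figure D2:**
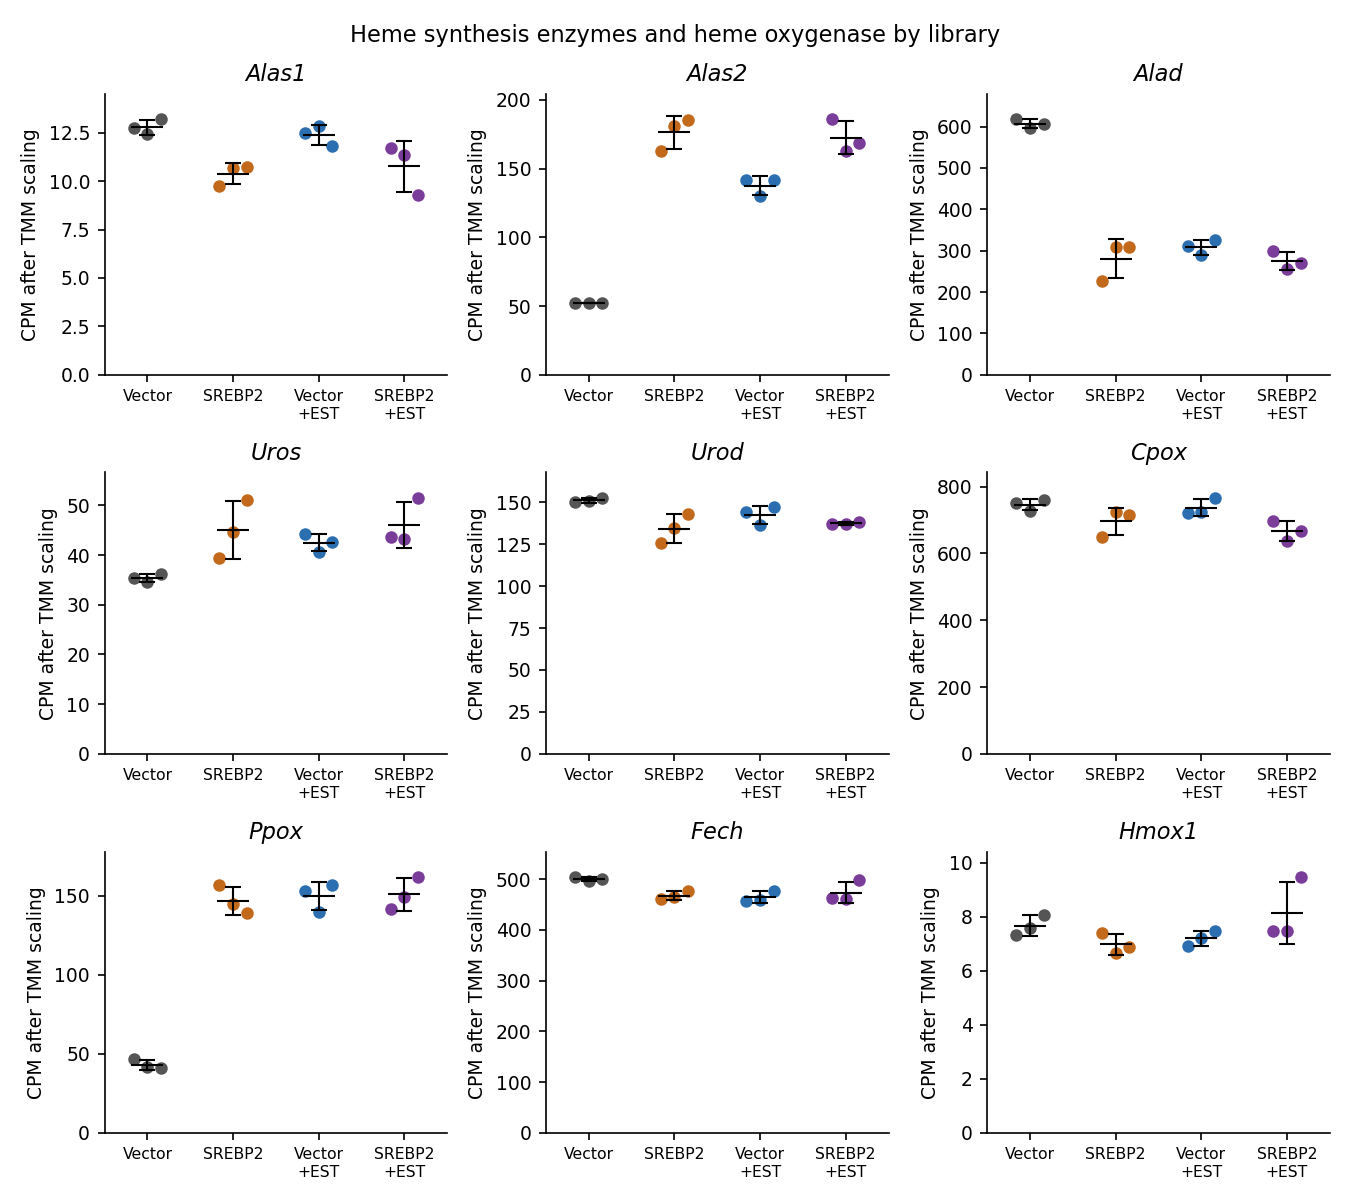
CPM after TMM scaling (y axis, from 0) of the 9 genes in the 12 libraries, 1 point per library within each group, with the group mean and SD (n = 3) as a bar with caps. Vector libraries stand apart for Alas2, Ppox and Alad, and the other groups are closer to each other. Cpox, Urod, Fech and Hmox1 vary little.

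The second comparison asked what active SREBP2 did without EST. It shares the Vector libraries with the first, so the values of both are set side by side and likeness between them is not read as a result. Alas2 and Ppox rose, Alad fell, Uros rose, and Alas1, Urod and Fech fell by small amounts. Of the 9 genes, 7 passed (3 higher, 4 lower), and of all genes tested 71.5% did (37.7% higher, 33.8% lower). The median absolute log2 fold change was 0.30 for the 9 genes and 0.39 for all genes.

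Alas2 measured 163, 181 and 185 CPM in SREBP2 libraries against 52.0 to 52.3 CPM in Vector (log2 1.76 ± 0.06, 3.38-fold, edgeR adjusted p = 3.37e-13). Ppox measured 157, 145 and 139 CPM against 40.7 to 46.5 (log2 1.77 ± 0.07, 3.41-fold, adjusted p = 1.09e-12, edgeR). For both genes the groups were well apart. Alad measured 226, 308 and 308 CPM against 597 to 618 (log2 -1.11 ± 0.09, 2.16-fold lower, edgeR adjusted p = 1.25e-08), and library 1 was the low one. Without that library the log2 fold change of Alad was -0.98. Uros went from 35.4 ± 0.824 to 45.0 ± 5.82 CPM (log2 0.35 ± 0.08, edgeR adjusted p = 0.00152), with SREBP2 libraries at 39.4, 44.7 and 51.0 CPM, all above Vector. Apex2 and B4galt3 were also higher, at 36.6 ± 1.69 and 25.0 ± 1.69 CPM (edgeR adjusted p = 4.35e-07 and 3.45e-05), and their part in the values of Alas2 and Ppox was not tested.

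Alas1, the form of the first enzyme used by most other tissues, went the other way from Alas2, from 12.7, 12.4 and 13.2 CPM to 9.75, 10.7 and 10.7 CPM (log2 -0.30 ± 0.09, edgeR adjusted p = 0.00697). The libraries did not overlap, and the call held in each of 21 alternative settings. Per length, Alas2 was 3.85 ± 0.121 times Alas1 in Vector (SD, n = 3), 10.5 ± 0.900 times in Vector+EST, 15.8 to 16.3 times in the SREBP2 libraries and 15.2 ± 1.84 times in SREBP2+EST, so that Alas2 exceeded Alas1 in every library. With the longest in place of the mean transcript lengths every ratio was 1.77 times as large, with means of 6.80, 18.6, 28.3 and 27.0 in the same 4 groups. Urod fell from 151 ± 1.34 to 134 ± 8.73 CPM (edgeR adjusted p = 0.00314) and Fech from 500.5 ± 4.18 to 467.5 ± 8.65 CPM (0.0226). The Fech call was lost without Vector library 1, SREBP2 library 1 or SREBP2 library 3. Cpox, at 746 ± 16.4 and 697 ± 40.6 CPM, had an adjusted p of 0.0606 by edgeR and passed in 14 of 21 alternative settings, DESeq2 among them (0.0224). Without SREBP2 library 1 and SREBP2+EST library 1 it passed as well (0.0211), which made 8 of 9, where 70.7% of all genes passed. Hmox1, at 6.99 ± 0.386 CPM in SREBP2 cells, did not pass (log2 95% interval from -0.36 to 0.09).

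**Figure D3:**
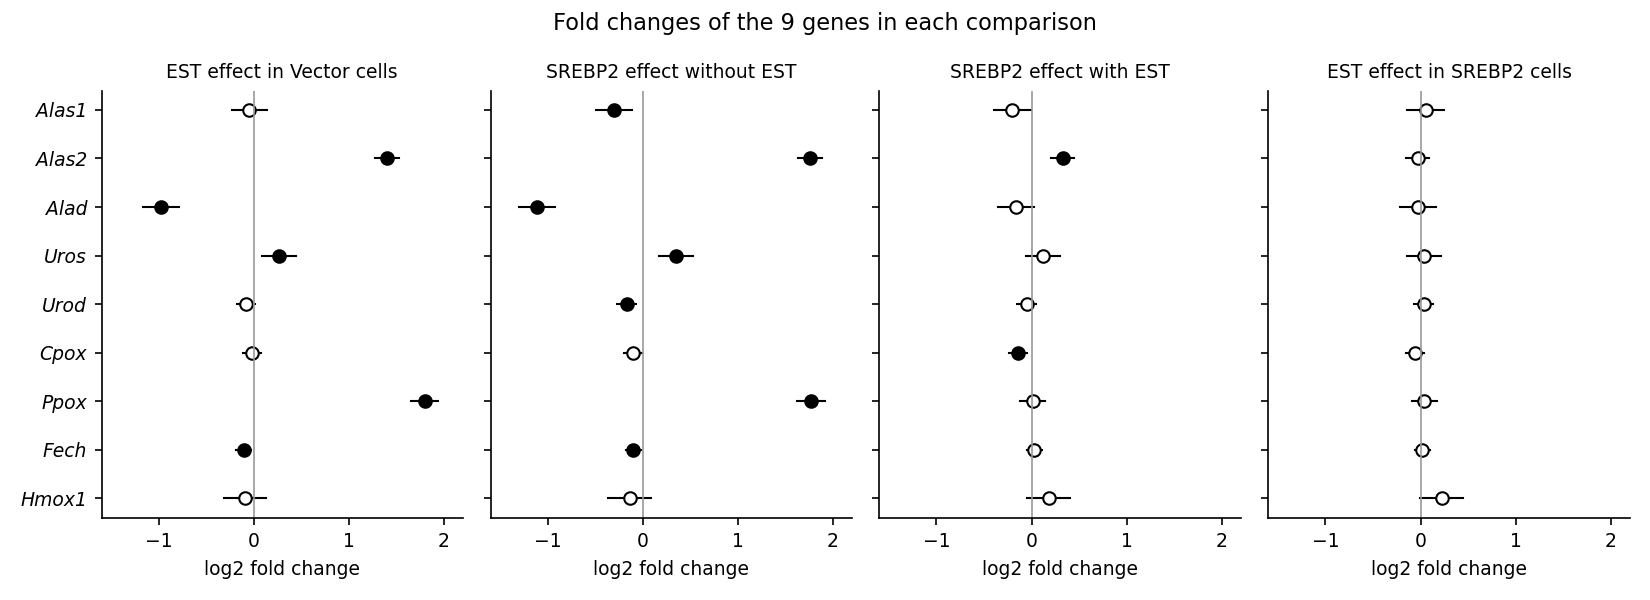
Log2 fold change (x axis) with its 95% confidence interval (line) for the 9 genes (y axis) in 4 comparisons, where filled points passed the threshold by edgeR. Alas2 and Ppox lie right of 0 and Alad left of 0 in the left-hand panels, which share the Vector libraries, and all intervals in the panel for EST in SREBP2 cells include 0.

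With EST present, SREBP2 raised Alas2 and lowered Cpox, 2 of 9, against 21.9% of all genes tested (14% higher, 7.94% lower). Of the genes called over the whole table, 63.7% were higher with TMM scaling and 42.2% with library totals alone. The median absolute log2 fold change was 0.14 for the 9 genes and 0.12 for all genes tested. Alas2 was 142, 129.8 and 141 CPM in Vector+EST and 186, 163 and 169 CPM in SREBP2+EST, with no overlap (log2 0.33 ± 0.06, 1.25-fold, edgeR adjusted p = 0.000507). Leaving out SREBP2 library 1 and SREBP2+EST library 1 together, the call remained, and so did it without any single library. Cpox was 722, 725 and 766 CPM in Vector+EST and 698, 636 and 668 CPM in SREBP2+EST (log2 -0.14 ± 0.04, edgeR adjusted p = 0.0307), a call lost without Vector+EST library 1, 3 or 5 or SREBP2+EST library 2 or 5 (adjusted p from 0.0503 to 0.116). Ppox was 153, 140.0 and 157 CPM and 141, 149.5 and 162 CPM, with libraries interleaved and a 95% interval of the log2 difference from -0.12 to 0.14. Alad, at 308 ± 17.9 and 275 ± 22.4 CPM, did not pass (log2 -0.16, adjusted p = 0.218, edgeR). The adjusted p of Alad by edgeR was 0.0194 without SREBP2 library 1, which is in neither group. Its fold change stayed at -0.16, and its SE, which rests on a spread estimated over all groups, became smaller. Without the 2 libraries nearer to another group, Alad (log2 -0.23, edgeR adjusted p = 0.000203) and Alas1 (log2 -0.27, 0.0413) passed as well, which made 4 of 9, where 30.7% of all 11292 genes tested in that fit passed. Vector+EST library 5 and every SREBP2+EST library also carried the Col1a1, Igfbp7, Fn1 and Mmp2 transcripts. Since all 3 SREBP2+EST libraries carried them, their part in this comparison cannot be told apart from the group.

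In SREBP2 cells EST moved none of the 9 genes past the threshold in edgeR, 0 members had an unadjusted p under 0.05 and 0 passed in DESeq2. Of all 11177 genes 0% passed (506 at an unadjusted p under 0.05), and DESeq2 called 12. Alas2 was 163, 181 and 185 CPM without EST and 186, 163 and 169 CPM with it, and the 95% interval of its log2 difference ran from -0.15 to 0.09. The intervals of Ppox (-0.09 to 0.17) and Alad (-0.22 to 0.16) likewise left out changes of the size seen in Vector cells. Hmox1 went from 6.99 ± 0.386 to 8.15 ± 1.15 CPM with an interval from -0.01 to 0.45, and 1 library, SREBP2+EST 5 at 9.48 CPM, stood above the other 2 at 7.48 and 7.49. Without SREBP2 library 1 and SREBP2+EST library 1, which by their choice widens this gap, 3 genes passed as lower with EST, Alas2 (log2 -0.14, edgeR adjusted p = 0.0324), Alad (-0.23, 0.00189) and Cpox (-0.14, 0.0141), and the share of all genes that passed went from 0% to 13.9% (1567 of 11292).

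The EST effect in SREBP2 cells minus that in Vector cells was tested as an interaction. It passed for 4 of 9 genes, where 59% of all genes tested passed (29.8% higher, 29.2% lower). The difference was -1.43 ± 0.08 (log2, SE) for Alas2 (edgeR adjusted p = 6.01e-10), -1.76 ± 0.09 for Ppox (1.71e-10), 0.95 ± 0.13 for Alad (9.07e-06) and 0.13 ± 0.05 for Fech (0.0440). The call of Fech was lost without Vector 1, SREBP2 1 or 3, Vector+EST 1 or 3, or SREBP2+EST 5, left out 1 at a time (adjusted p from 0.0667 to 0.0969). Uros passed without SREBP2 1 (edgeR adjusted p = 0.0115) or SREBP2+EST 5 (0.0309), Urod without SREBP2 5 (0.0260) and Hmox1 without SREBP2+EST 2 (0.0498). With SREBP2 1 and SREBP2+EST 1 both left out, 6 of 9 passed, Hmox1 (log2 0.45, edgeR adjusted p = 0.0236) and Uros (-0.24, 0.0390) among them, where 57.1% of all genes did.

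SREBP2 alone and EST alone were then set against each other directly. Alas2 was higher with SREBP2, at 163 to 185 CPM against 129.8 to 142 CPM (log2 0.36 ± 0.06, edgeR adjusted p = 0.000201), and was the 1 gene of 9 to pass, where 23.4% of all genes tested did (14.4% higher, 8.96% lower). The share of those calls that were higher was 61.7% with TMM scaling and 42.2% with library totals alone. Alas1 was lower, at 9.75 to 10.7 against 11.8 to 12.9 CPM, without overlap, but missed the threshold (adjusted p = 0.0531, edgeR). It passed without SREBP2+EST library 1 (0.0429) or 5 (0.0264), which are in neither group and bear on the fit's shared spread. Urod passed without SREBP2 library 5 (0.0479). Ppox differed by -0.03 with an interval from -0.16 to 0.10. Against untreated Vector cells, SREBP2 with EST changed 7 of 9 genes, where 72.7% of all genes passed (38.6% higher, 34.2% lower): Alas2, Ppox and Uros were higher (log2 1.73, 1.81 and 0.38) and Alad, Alas1, Cpox and Urod lower (-1.14, -0.25, -0.16 and -0.14). The Alas1 call was lost without SREBP2+EST library 5 (edgeR adjusted p = 0.0862), and Fech, with an adjusted p of 0.0598, passed in 11 of 21 alternative settings. Without SREBP2 library 1 and SREBP2+EST library 1, 8 of 9 passed, Fech among them (0.0131), where 73.9% of all genes did, and in the comparison of SREBP2 with Vector+EST 1 of 9 passed, where 34.4% did. Summed over the 8 enzymes, transcripts came to 2112 to 2170 CPM in Vector, 1831 to 2030 in SREBP2, 1933 to 2068 in Vector+EST and 1858 to 1980 CPM in SREBP2+EST. Alad decided where Vector stood, since the sum over the other 7 was lowest in Vector, at 1516 to 1555 CPM against 1605 to 1722, 1643 to 1743 and 1601 to 1696 CPM.

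Genes around the pathway were described from lists, with counts given for the EST effect in Vector, the SREBP2 effect without EST and the SREBP2 effect with EST in that order, each read beside the share of all genes above. Of 12 genes for mitochondrial transport and assembly, 5 rose and 5 fell, 6 rose and 5 fell, and 5 rose and 2 fell. Abcb10, a mitochondrial inner membrane transporter tied to heme synthesis, rose from 143 ± 0.793 CPM in Vector to 676 ± 45.4 in Vector+EST, 715 ± 33.7 in SREBP2 and 745 ± 31.1 CPM in SREBP2+EST. Tmem14c, a mitochondrial protein needed for porphyrin import, rose from 215 ± 6.92 to 495 ± 15.9 CPM with EST (log2 1.20 ± 0.05, edgeR adjusted p = 2.76e-12). Tspo2, an erythroid translocator protein, fell from 42.8 ± 3.56 to 10.9 ± 0.964 CPM with EST and to 14.6 ± 1.51 CPM with SREBP2. Fam210b rose from 72.8 ± 2.19 to 142 ± 15.3 and 175 ± 7.57 CPM, and was higher with SREBP2 also in the presence of EST (log2 0.44 ± 0.09, edgeR adjusted p = 0.00141). Slc25a37, mitoferrin 1, the iron importer, was 138 ± 5.59 CPM in Vector and 80.6 ± 6.11 CPM in Vector+EST (adjusted p = 6.22e-06, edgeR) and was higher in SREBP2+EST at 105 ± 12.4 CPM (0.0172).

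Heme breakdown beside Hmox1 was covered by 3 genes. With EST in Vector cells all 3 rose, Hmox2 (the constitutive heme oxygenase) from 40.8 ± 2.52 to 49.0 ± 2.42 CPM, Blvra from 18.4 ± 1.34 to 22.3 ± 0.730 CPM and Blvrb, the other biliverdin reductase, from 456 ± 16.9 to 599 ± 15.6 CPM (edgeR adjusted p = 0.000713, 0.00196 and 3.78e-07). With SREBP2 alone Blvrb rose, to 607 ± 33.5 CPM, and Hmox2 and Blvra did not pass, and with both EST and SREBP2 none of the 3 differed from EST alone past the threshold.

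Of 7 tested genes of heme export, uptake and binding, Flvcr2 is described apart, since it passed the low-count filter through the SREBP2 and SREBP2+EST libraries, where it is high, and a difference there was in part fixed by the filter. Of the other 6, 2 rose and 4 fell, 4 rose and 2 fell, and 4 rose and none fell. Flvcr1, the heme exporter, rose from 43.3 ± 1.98 to 65.6 ± 0.492 CPM with EST and to 86.5 ± 1.13 CPM with SREBP2. Slc48a1, which carries heme out of lysosomes, fell from 504 ± 11.7 to 224 ± 12.3 and 273 ± 40.0 CPM. Hebp1, a heme-binding protein, rose from 23.8 ± 0.410 to 81.6 ± 5.35 and 85.0 ± 9.22 CPM. Pgrmc1, a heme-binding membrane protein known to contact ferrochelatase, fell from 66.6 ± 1.57 to 36.3 ± 3.08 and 45.1 ± 5.20 CPM. Pgrmc2, its relative, moved in opposite directions, falling to 64.6 ± 2.73 CPM with EST and rising to 147 ± 7.93 CPM with SREBP2 from 82.7 ± 1.67 CPM in Vector. Flvcr2 was near the detection limit in Vector (0.171 ± 0.0300 CPM) and under it on average in Vector+EST (0.0692 ± 0.0600 CPM). It reached 1.27 ± 0.168 CPM in SREBP2 and 0.756 ± 0.249 CPM in SREBP2+EST.

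**Figure D4:**
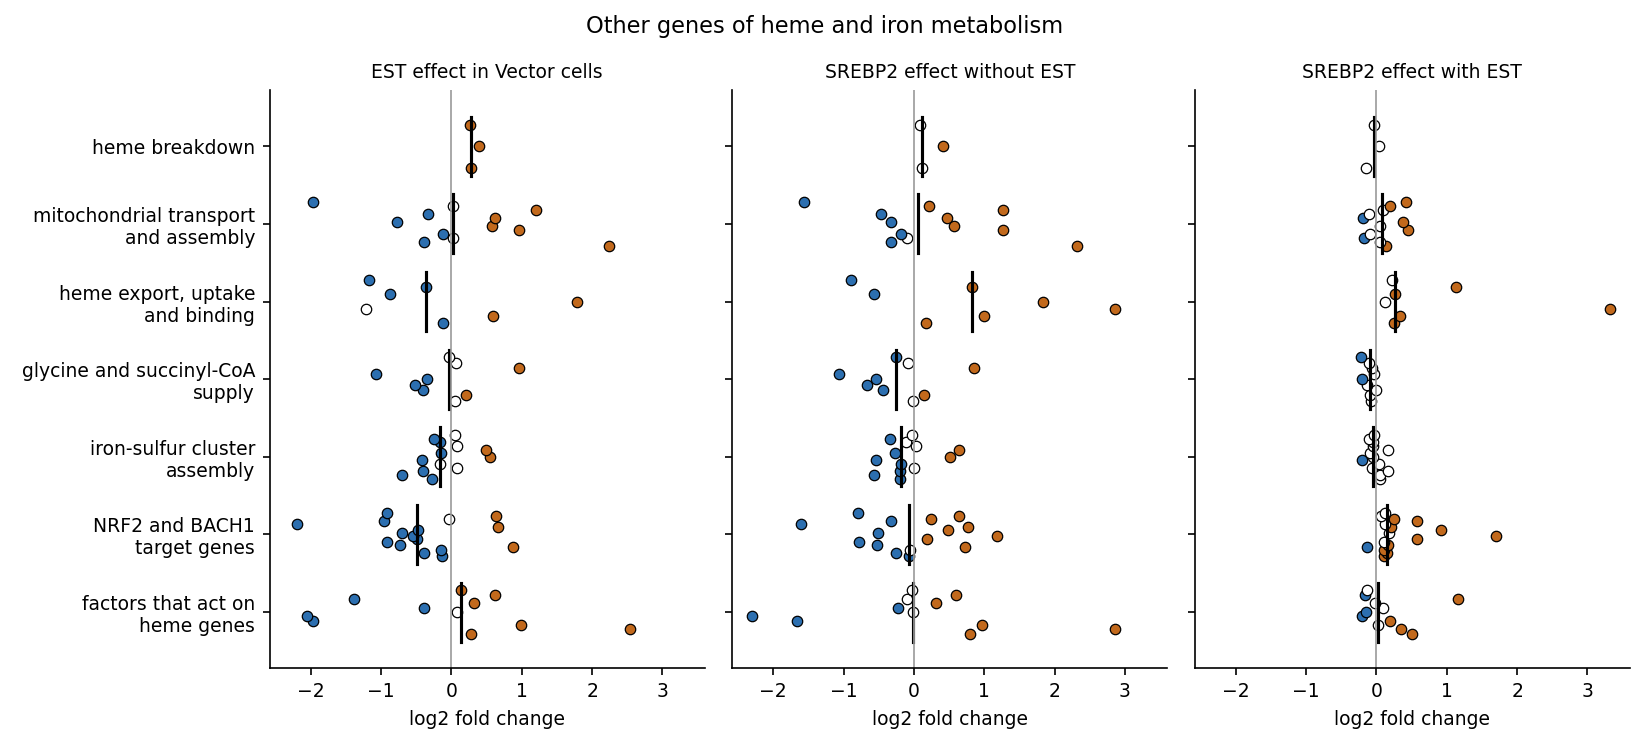
Log2 fold change (x axis) of the tested genes of 7 lists (y axis, points spread vertically for legibility) in 3 comparisons; orange points were higher and blue lower past the threshold by edgeR, open points did not pass, and the black line is the list's median, Flvcr2 and Slc7a11 included. Most lists hold points on both sides of 0, and most points lie near 0 in the panel with EST, apart from a few such as Flvcr2 and Me1.

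Supply of substrates was mixed. Of 9 genes for glycine and succinyl-CoA, 2 rose and 4 fell, 2 rose and 5 fell, and none rose and 2 fell. Slc6a9, a glycine importer, fell from 25.0 ± 0.263 CPM to 10.9 to 13.3 CPM in Vector+EST libraries and 9.48 to 13.5 CPM in SREBP2 libraries, and Shmt1, a glycine-forming enzyme, from 53.2 ± 0.924 to 37.3 ± 0.615 and 33.5 ± 3.44 CPM. Sucla2, a subunit of succinyl-CoA synthetase, rose from 68.0 ± 1.25 to 132 ± 5.60 and 123 ± 7.36 CPM. Of 13 iron-sulfur cluster genes, which also supply ferrochelatase, 2 rose and 7 fell in each of the first 2 comparisons, and 1 fell in the third. Isca2 rose from 36.7 ± 4.18 to 51.6 ± 1.55 and 57.4 ± 2.90 CPM, Fdx2 fell from 35.8 ± 0.676 to 22.1 ± 1.08 and 24.1 ± 1.74 CPM, and Hspa9, a chaperone of cluster transfer, fell from 743 ± 10.7 to 557 ± 17.3 and 514 ± 20.9 CPM.

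Hmox1 is a known target of NRF2 and of its opponent BACH1, so 16 other tested targets were looked at beside it. Slc7a11 is left out of the counts, since it passed the low-count filter mainly through the Vector libraries, where it is high. Of the other 15, with EST 3 rose and 11 fell (median log2 -0.47, against 0.01 for all genes tested), with SREBP2 7 rose and 7 fell (-0.06 against 0.03), and with SREBP2 in the presence of EST 10 rose and 1 fell (0.16 against -0.0048). Srxn1, Gsr and Txnrd1, antioxidant enzymes, fell with EST from 45.6 ± 1.01 to 23.6 ± 1.52, from 106 ± 3.84 to 56.1 ± 2.57 and from 226 ± 5.84 to 120 ± 3.28 CPM. Me1 and Pgd, which make NADPH, were lower with EST and higher with SREBP2. Me1 was 65.5 ± 1.60 CPM in Vector, 44.8 ± 0.789 in Vector+EST, 148 ± 8.59 in SREBP2 and 145 ± 5.22 CPM in SREBP2+EST. Slc7a11, a cystine importer, was low throughout (1.53 ± 0.268 CPM in Vector, 0.329 ± 0.244 in Vector+EST and 0.503 ± 0.221 CPM in SREBP2).

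Among 11 tested factors that act on heme genes, 6 rose and 4 fell, 5 rose and 3 fell, and 4 rose and 3 fell. Bach1 rose from 30.0 ± 1.17 to 174 ± 2.12 and 217 ± 15.3 CPM. Gata1 reads, which include the fusion that every group carries, fell from 1769 ± 17.1 to 453 ± 28.5 and 557 ± 40.2 CPM, and Gata2 from 644 ± 17.7 to 156 ± 4.55 and 131 ± 2.80 CPM. Klf1 rose from 267 ± 10.5 to 335 ± 22.4 and 333 ± 41.0 CPM. Nfe2 fell with EST, from 263 ± 1.53 to 101 ± 6.70 CPM (edgeR adjusted p = 7.19e-09), and was 247 ± 40.6 CPM with SREBP2, which did not pass (0.434). Between the EST groups it rose with SREBP2, to 226 ± 31.8 CPM in SREBP2+EST (log2 1.15 ± 0.11, edgeR adjusted p = 4.38e-07). Eif2ak1, the heme-regulated kinase HRI, rose from 120.4 ± 1.97 to 239.5 ± 8.06 and 235 ± 8.76 CPM. Nfe2l2, which encodes NRF2, rose from 123 ± 1.91 to 189 ± 2.58 and 187 ± 16.1 CPM, and Keap1, its inhibitor, fell from 82.3 ± 2.07 to 63.1 ± 0.863 and 70.4 ± 1.47 CPM. Aco1 rose from 124 ± 3.18 to 149.6 ± 6.19 CPM with EST and to 215 ± 5.35 CPM with SREBP2. Nrf1 went from 67.3 ± 2.45 to 74.4 ± 1.37 CPM with EST (edgeR adjusted p = 0.0151) and Ireb2 from 92.4 ± 3.93 to 97.8 ± 4.99 CPM (0.134).

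Genes with the pattern most like that of 3 members were found by the root mean square difference of log2 CPM, centred on each gene, over the 12 libraries, among 8487 genes whose log2 CPM averaged 3 or more. For Alas2, which itself varied by 0.72 about its mean, the closest were Kcne3 (0.0579), Atl2 (0.0580) and Daam1 (0.0833). For Alas1 (0.15 about its mean) they were Ftsj3 (0.0638), Ppp1r8 (0.0691) and Erh (0.0713), and for Hmox1 (0.12) Mus81 (0.0801), Slc35b4 (0.0817) and Preb (0.0829). The distances for Alas1 and Hmox1 are a large share of their own variation, since both varied little.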

How the data were processed

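The 12 mRNA libraries of G1E-ER4 cells were sequenced by 50-base single-end reads on a DNBSEQ platform. The authors deposited estimated counts per gene, not normalized, and 66.5% of these values were whole numbers. Tools named in the submitters' processing notes, with no role or order, were HISAT2 2.0.4, Bowtie2 2.2.5, RSEM 1.2.12 and DESeq2 1.4.5, with build GRCm38.p6; strandedness was not given in the sources used here. A second deposited table holds the authors' own pairwise comparisons per transcript (fold changes and p-values) and was not used. Columns were assigned to groups by their header names, and 0 columns of other samples were present.

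Estimated counts were rounded, filtered by filterByExpr (11177 genes kept of 17210), scaled by TMM and tested with edgeR 4.0.16 (R 4.3.3; quasi-likelihood F-test, one mean per group, every library in the same fit). Benjamini-Hochberg adjustment ran over all genes tested, with a threshold of 0.05. The SE of a log2 fold change is its size over the root of the F statistic. Per-length levels divided CPM by the mean length of GENCODE M21 protein-coding transcripts. Promoters came from RefSeq; the motif search covered both strands of 250 bases. Totals of 18700893 to 19152254 counts per library set the counting error, and detection was taken as 3 counts. Named genes followed a rule: all 9 members, the 3 genes of each list with the largest absolute change past the threshold in 3 comparisons (every gene of lists of 3, and of the factors), and 3 nearest patterns for Alas2, Alas1 and Hmox1; not every such value is printed. The members and lists were chosen with earlier results of these data known. On simulated counts for the EST effect in Vector cells (11025 genes), 175 of 199 changed genes were recovered, with 9 of 184 calls false. Only those 199 genes were changed there, whereas 70.6% of genes passed in the data. These rates therefore cannot be carried over to the data. One further pathway gene is not reported here. Alternatives were DESeq2 1.42.0, relative log expression or library totals, other count filters, unrounded counts, only the groups compared, each library left out, a block on header numbers, 2 libraries left out together, and the longest transcript for ratios and levels.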

Additional observations from a re-analysis of the deposited data

Results flagged for a closer look

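The effect of EST differed between SREBP2 and Vector cells, by a test of the difference itself (edgeR's quasi-likelihood interaction), for 4 of the 9 genes, where 59% of all genes tested passed the same test. The EST effect in SREBP2 cells minus that in Vector cells was -1.43 for Alas2, -1.76 for Ppox, 0.95 for Alad and 0.13 for Fech, on the log2 scale. With each single library left out it ranged from -1.49 to -1.38 for Alas2, from -1.82 to -1.69 for Ppox and from 0.81 to 1.02 for Alad, and these 3 passed in every such fit. Fech passed in 6 of 12.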

How the results depend on the processing

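Beside its main value, each of the 7 comparisons was fitted under 21 alternatives (20 for the interaction), and Alas2, Ppox and Alad kept direction and call under each of them in the 3 comparisons with Vector and in the interaction. Counts of members past the threshold moved by over 1.5 times in 3 comparisons. For the SREBP2 effect with EST the count of 2 ran from 1 to 3 with single libraries left out, where 15.6% to 27.2% of all genes passed. It was 4 without SREBP2 library 1 and SREBP2+EST library 1 together, where the share of all genes that passed went from 21.9% to 30.7%. That setting also made the count for EST in SREBP2 cells 3, and the share of all genes went from 0% to 13.9%. For SREBP2 against Vector+EST the count of 1 (23.4% of all genes) became 2 with relative log expression scaling (23.9%) and 4 with library totals (28.9%). It ran from 1 to 2 with single libraries left out, where 16.6% to 28.5% of all genes passed. Ratios of Alas2 to Alas1 with the longest transcripts were 6.80 in Vector, 28.3 in SREBP2, 18.6 in Vector+EST and 27.0 in SREBP2+EST, each larger by the constant that the lengths fix. The longest transcripts for levels per length, and the summed enzymes without Alad, were chosen after seeing the data. Leaving Flvcr2 and Slc7a11 out of their lists was chosen after seeing the data, and no count of list genes past the threshold moved by over 1.5 times.

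Values that changed sign were small and none of their main values had passed. In SREBP2 with EST, Ppox was -0.0070 with DESeq2 and with relative log expression, -0.034 with library totals and -0.043 to 0.055 with single libraries left out, and Fech was -0.017 with library totals and -0.0097 to 0.048 with single libraries left out. In EST in SREBP2 cells, without the 2 libraries nearer to another group Alas1 was -0.052, Uros -0.014 and Urod -0.0093; with single libraries left out Alas1 ran from -0.0093 to 0.15, Alas2 from -0.088 to 0.0073, Alad from -0.16 to 0.044, Uros from -0.054 to 0.13, Urod from -0.014 to 0.080, Ppox from -0.017 to 0.088 and Fech from -0.021 to 0.037. In SREBP2 against Vector+EST, Fech was -0.0013 with DESeq2 and with relative log expression, -0.034 with library totals and -0.0071 to 0.031 with single libraries left out, Uros ran from -0.016 to 0.17 and Ppox from -0.077 to 0.0091. In SREBP2+EST against Vector, Hmox1 ran from -0.054 to 0.14, and in the interaction Cpox ran from -0.093 to 0.0092. The cause was not tested.

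No pairing by header number was seen in deviations from the group means. Their correlations in 13 same-number pairs lay between -0.17 and 0.07, and 0 exceeded 0.1. Whether libraries shared a culture or batch by these header numbers was not tested. With these numbers as a replicate block, members past the threshold were 4 for EST in Vector (63.4% of all genes), 6 for SREBP2 without EST (64.2%), 1 for SREBP2 with EST (10.8%), 0 for EST in SREBP2 cells (0%), 1 for SREBP2 against Vector+EST (16.1%), 6 for SREBP2+EST against Vector (63.2%) and 3 for the interaction (48.2%), and under the block Ppox was -0.0091 (SREBP2 with EST), Alad 0.040 (EST in SREBP2 cells) and Cpox 0.024 (interaction). Depth limits Hmox1 and Alas1 most, which had the fewest counts.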
